A study of Sus scrofa with 16 samples.

Results

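POMC, which encodes the precursor pro-opiomelanocortin, and 4 genes for enzymes that turn it into hormones (PCSK1, PCSK2, CPE and PAM) were followed through the pituitary transcriptome. These 5 genes were taken by name and Ensembl identifier from a table of 25880 genes, and all 5 passed the filter on low counts. RNA was sequenced from the pituitaries of 16 unrelated female pigs (gilts) of the Puławska breed, a native Polish breed, all aged 3 months by the labels (at slaughter, older by the methods). They formed 2 groups of 8 that received the same housing and feed: low feed conversion (LFC, replicates 1 to 8) and high feed conversion (HFC, replicates 9 to 16), where feed conversion is feed eaten over weight gained. Each library comes from 1 gland that the methods describe as taken and homogenised whole, so the cells of all its lobes share 1 library. The comparison asked whether levels of these transcripts differed with feed conversion. By the paper, HFC gilts also ate more per day, gained less per day and stayed longer in the test than LFC gilts. Such traits cannot be told apart from feed conversion here. The pigs came from different farms, and farm was not modelled.

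In the anterior lobe, corticotroph cells cut pro-opiomelanocortin with prohormone convertase 1, the product of PCSK1, into adrenocorticotropic hormone (ACTH) and β-lipotropin. In the intermediate lobe, melanotroph cells also carry prohormone convertase 2, the product of PCSK2, which cuts ACTH further on the way to α-melanocyte-stimulating hormone and releases β-endorphin. Carboxypeptidase E (CPE) then trims basic residues from the cut ends, and peptidylglycine alpha-amidating monooxygenase (PAM) amidates the end of α-melanocyte-stimulating hormone.

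Levels are given as CPM, a gene's counts for every 1000000 counts of its library after TMM scaling, which evens out differences in RNA composition. Library totals lay between 11 and 23.1 M counts. 4 libraries stood apart. In LFC replicate 5, HFC replicate 13 and HFC replicate 14, genes spanning over 100 kb were low against genes spanning under 10 kb, by -1.49, -0.90 and -0.51 on the log2 scale relative to the median library, while 12 of the other 13 lay between -0.03 and 0.41 and HFC replicate 15 at -0.30. In HFC replicate 16, POMC alone took 22% of all counts (95% Wilson interval 21.98% to 22.02%, counting error only), against 0.624% to 6.52% in the other 15. Results that turn on 1 of these libraries are also given without it. Because a gland is a mixture, fewer cells of a type and less RNA per cell cannot be told apart in any value below.

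The precursor was abundant in every gland and varied 41-fold between them. POMC (ENSSSCG00000021155) lies on chromosome 3 of Sscrofa11.1 at 113661004 to 113670624 and was named by its position, which holds the RefSeq POMC gene. Its level in LFC was 5926 CPM in the lowest library, 19896 CPM at the median and 77318 CPM in the highest. In HFC the lowest, median and highest values were 22878, 47497 and 243007 CPM. All 8 HFC libraries lay above the LFC median, but 7 of the 8 lay within the LFC range, because the highest LFC library, replicate 5, exceeded every HFC library except replicate 16. The LFC mean was 26693 CPM (SD 22430, n = 8) and the HFC mean 68327 CPM (SD 72614, n = 8).

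The POMC difference did not pass the adjusted threshold. The edgeR log2 fold change of HFC against LFC was 1.36 (SE 0.55), with a quasi-likelihood p of 0.0242 and an adjusted p of 0.753 over the 14319 genes tested. Mean log2 CPM was 1.29 higher in HFC (14.32 ± 1.13 against 15.61 ± 1.09, SD, n = 8 each), with a two-sided exact permutation p of 0.0329. Without HFC replicate 16 the fold change was 0.70 on the log2 scale and the difference in means 0.97 (exact permutation p = 0.0653). Without LFC replicate 5 the log2 fold change was 1.81 (edgeR adjusted p = 0.338). Without LFC replicate 6 the difference in means was 1.04 (exact permutation p = 0.0698). The direction was thus the same each time, and its size depended on single libraries in both groups.

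**Figure D1:**
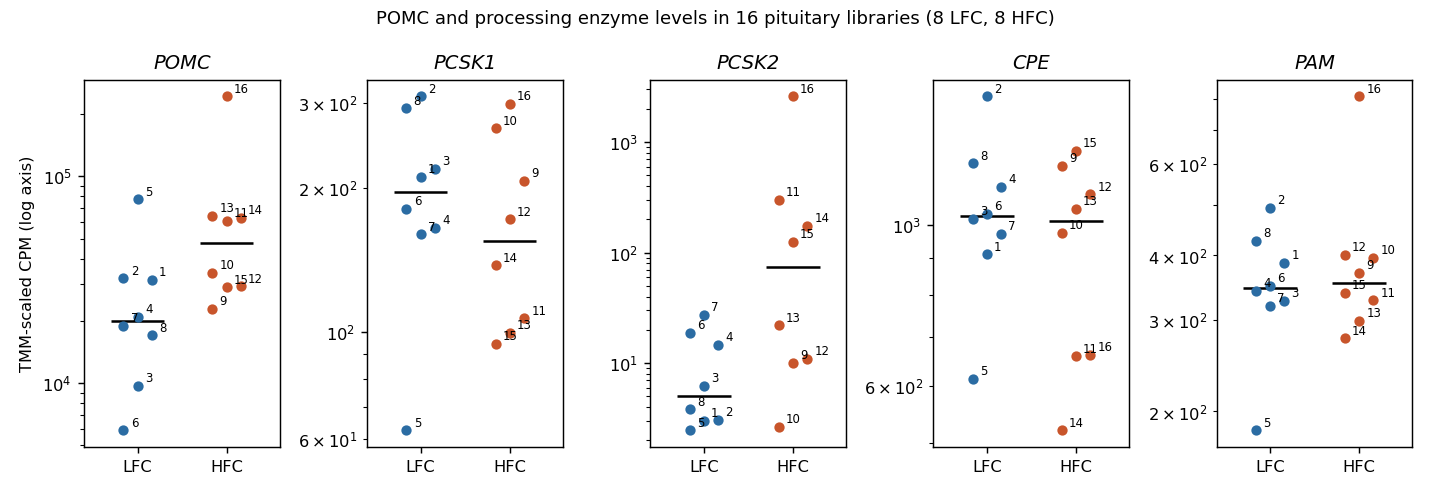
CPM (TMM-scaled, log axis) of the 5 genes in each of the 16 libraries, with the replicate number beside each point and a line at each group's median. POMC lay above the LFC median in all 8 HFC libraries but within the LFC range in 7. PCSK2 was above the highest LFC library (27.3 CPM) in 4 HFC libraries. All 5 genes overlapped between the groups, as did all but 3 of the 14319 genes tested.

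The convertase genes behaved unlike each other. PCSK1 (ENSSSCG00000014169, RefSeq chromosome 2, 103004794 to 103050707) stayed within a 4.96-fold range over the 16 libraries, whereas PCSK2 (ENSSSCG00000007083, RefSeq chromosome 17, 25681424 to 25920690) spanned 1049-fold. On the log2 scale the range of PCSK2 was 9.97, which ranked 14 among the 14319 genes tested, against a median range of 1.62. POMC ranked 257 with a range of 5.36.

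PCSK1 ranged from 62.5 CPM through a median of 196 CPM to 310 CPM in LFC. In HFC it ranged from 94.6 through 155 to 299 CPM, wholly inside the LFC range. The lowest value of all belonged to LFC replicate 5, one of the libraries with low counts of long genes; that link was not tested. The log2 fold change was -0.21 (standard error 0.30, edgeR adjusted p = 1), and the means of log2 CPM gave an exact permutation p of 0.551.

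PCSK2 was low in all LFC glands and high in some HFC glands. In LFC it was at 3.01, 3.06, 6.24, 14.6, 2.47, 18.8, 27.3 and 3.83 CPM in replicates 1 to 8. In HFC it was at 10.1, 2.66, 299, 10.9, 22, 175, 126 and 2595 CPM in replicates 9 to 16. HFC replicates 11, 14, 15 and 16 thus lay above every LFC library, and the other 4 HFC libraries lay within the LFC range. The lowest value, in LFC replicate 5, still rested on 26 counts, so PCSK2 was detected in every gland.

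The fitted PCSK2 difference was large but uncertain. In edgeR it was 5.34 on the log2 scale (SE 1.28), with an adjusted p of 0.612. Its unadjusted p (0.000633 by the quasi-likelihood test of edgeR) ranked 9 from the smallest among the 14319 genes. On log2 CPM, where 1 extreme library weighs less, the means were 2.78 ± 1.34 in LFC and 5.85 ± 3.22 in HFC (SD, n = 8 each), a difference of 3.07 (two-sided exact permutation p = 0.0244), and 7 of 8 HFC libraries exceeded the LFC mean. Leaving out HFC replicate 16, the log2 fold change was 3.21 (edgeR adjusted p = 0.779) and the difference in means 2.28 (exact permutation p = 0.0466). Without LFC replicate 5, HFC replicate 13 and HFC replicate 14 the difference in means was 2.83 (exact permutation p = 0.0828).

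The trimming and amidating enzymes were the steadiest of the set. CPE (ENSSSCG00000008854, chromosome 8, 43568504 to 43695862) was between 613 and 1506 CPM in LFC, with a median of 1028 CPM, and between 521 and 1266 CPM in HFC, with a median of 1014 CPM. Its log2 fold change was -0.17 (standard error 0.20, edgeR adjusted p = 1; exact permutation p = 0.368 on the means). The 4 lowest libraries were HFC replicate 14, LFC replicate 5, HFC replicate 11 and HFC replicate 16. Only the first of these fell below the LFC range.

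PAM (ENSSSCG00000014184, chromosome 2, 108256029 to 108536880) was between 184 and 494 CPM in LFC, with a median of 346 CPM. In HFC it was between 277 and 811 CPM, with a median of 354 CPM. The lowest value was again LFC replicate 5 and the highest HFC replicate 16, while the other 7 HFC libraries lay within the LFC range. The log2 fold change was 0.19 (standard error 0.22, edgeR adjusted p = 1; exact permutation p = 0.528 on the means), and -0.04 without HFC replicate 16, so that its sign rested on that library. CPE and PAM both span over 100 kb, and their part in the low long-gene counts of LFC replicate 5 was not tested.

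**Figure D2:**
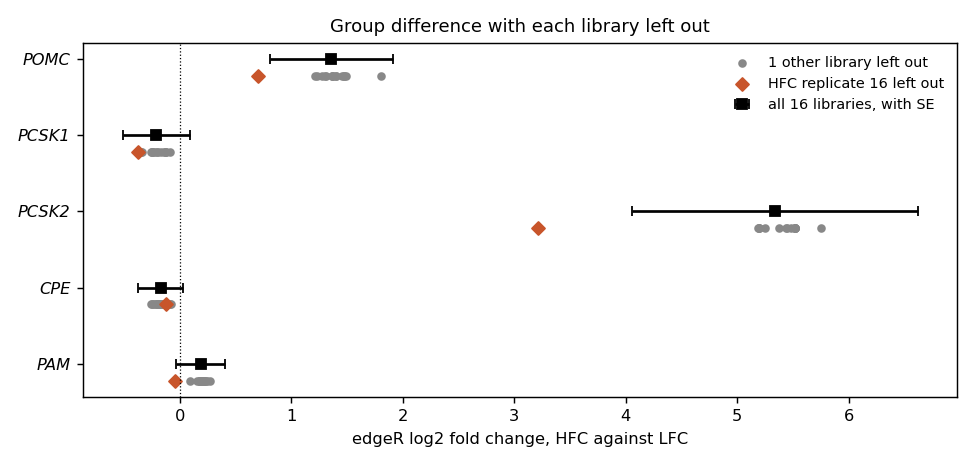
edgeR log2 fold change of HFC against LFC for each gene, with its SE from all 16 libraries (squares) and with each library left out in turn (points). Leaving out HFC replicate 16 (diamonds) moved PCSK2 from 5.34 to 3.21, POMC from 1.36 to 0.70 and PAM from 0.19 to -0.04.

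Of the 14319 genes tested, edgeR called 0 (0%) at an adjusted p of at most 0.05 with a fold of at least 1.3, so no member could stand out by that rule. The unadjusted p was under 0.05 for 834 genes (5.82%), of which 615 (4.29% of all tested) were higher in HFC. POMC and PCSK2 were 2 of these 615, and PCSK1, CPE and PAM were not among the 834. limma-voom called 0 genes and DESeq2 called 6, none of them a member unless its replacement of outlying counts was switched off (adjusted p of PCSK2 0.0783 with replacement, 0.000312 without). The only PCSK2 count replaced was that of HFC replicate 16, so the call of PCSK2 turned on that library. 5 members were tested by permutation, and those p-values carry no correction.

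Ratios of 2 genes within a library do not depend on scaling. The log2 ratio of PCSK2 to PCSK1, the convertase of the melanotroph step against that of the corticotroph step, was -4.77 ± 1.54 in LFC and -1.47 ± 3.35 in HFC (SD, n = 8 each). In 5 HFC libraries, replicates 11, 13, 14, 15 and 16, it lay above the highest LFC ratio of -2.55. The difference of 3.29 had an exact permutation p of 0.027 (two-sided), or 0.0838 adjusted over the 5 ratios tested. Without HFC replicate 16 it was 2.64 (exact permutation p = 0.0519), and without HFC replicate 11 it was 2.87 (exact permutation p = 0.0502). These are ratios of counts without regard to gene length, so they compare libraries and do not say which of the genes was higher.

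Set against POMC, PCSK1, CPE and PAM had lower mean ratios in HFC than in LFC, none past the adjusted threshold. These ratios share POMC as their denominator, so they are not separate results. Mean log2 CPM differed by 1.29 for POMC, against -0.21 for PCSK1, -0.20 for CPE and 0.15 for PAM. Counts of a whole gland do not show how much enzyme RNA came from cells with POMC. The log2 ratio of PCSK1 to POMC was -6.81 ± 1.61 in LFC and -8.31 ± 1.11 in HFC (SD, n = 8 each), a difference of -1.50 (exact permutation p = 0.0486, adjusted p = 0.0838). The groups overlapped: the lowest ratio was -10.27 in LFC replicate 5, below all HFC libraries. Without that library the difference was -2.0, whereas leaving out any of 12 other libraries took the p above 0.05. The ratio of CPE to POMC differed by -1.49 (exact permutation p = 0.0503) and that of PAM to POMC by -1.14 (exact permutation p = 0.0681), and all 8 HFC libraries lay below the LFC mean for PAM. Without LFC replicate 5 these were -1.87 (exact permutation p = 0.00808) and -1.54 (exact permutation p = 0.00342), and without HFC replicate 16 they were -1.11 (exact permutation p = 0.0993) and -0.97 (exact permutation p = 0.122). For PCSK2 to POMC the difference was 1.79 with wide overlap (exact permutation p = 0.149).

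**Figure D3:**
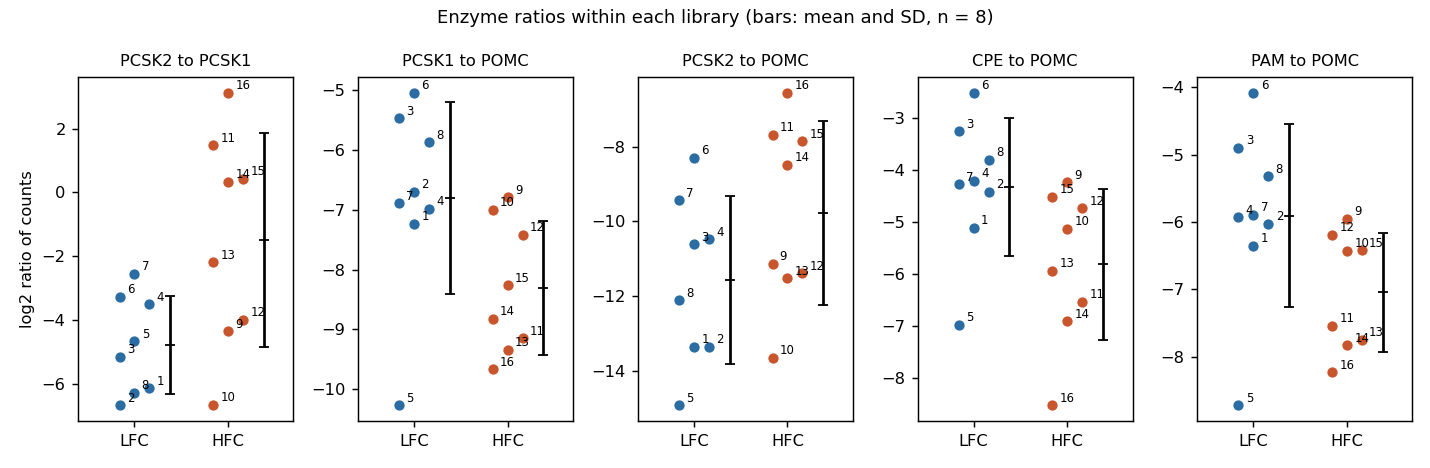
Log2 ratios of counts within each library, by group, with the replicate number beside each point and bars for the mean and SD (n = 8). The ratio of PCSK2 to PCSK1 exceeded the highest LFC value of -2.55 in 5 HFC libraries, and LFC replicate 5 was the lowest LFC library in every ratio to POMC.

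Over the 16 libraries, 1 of the 10 pairs of members moved together beyond the adjusted threshold. PCSK1 and PAM had r = 0.79 (permutation p = 1.1e-04, adjusted p = 0.0011) and rho = 0.82 (permutation p = 2.3e-04, adjusted p = 0.0023) in log2 CPM. Without the 2 libraries farthest from the median of PCSK1, LFC replicate 5 and HFC replicate 15, r was 0.72. Within the groups of 8, r was 0.97 in LFC and 0.74 in HFC, and it was 0.64 without the 3 libraries with low counts of long genes. The pair did not stand out among all genes: at least 5 genes outside the set ranked closer to each of them, with rho of 0.91 or more.

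POMC and PCSK2 did not form 1 relation. Their r was 0.53 over 16 libraries (permutation p = 0.0373, adjusted p = 0.124) and their rho 0.14 (permutation p = 0.607, adjusted p = 0.675). Without LFC replicate 6 and HFC replicate 16, r was 0.30. Without LFC replicate 5, HFC replicate 13 and HFC replicate 14, r was 0.65 and rho 0.08. Within LFC r was -0.63 and within HFC 0.79; the difference between these was not tested. LFC replicate 5 had the second highest POMC level of all and the lowest PCSK2 level, and HFC replicate 13 had 64490 CPM of POMC with 22 CPM of PCSK2. HFC replicate 15 had the reverse, 126 CPM of PCSK2 with 29066 CPM of POMC. LFC replicate 5 and HFC replicate 13 are among the libraries with low counts of long genes. PCSK2 spans over 100 kb and POMC under 10 kb (239267 and 6847 bases in RefSeq), and the part of this in their levels was not tested.

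POMC and CPE had r = -0.59 (permutation p = 0.0157, adjusted p = 0.0787) and rho = -0.50 (permutation p = 0.052, adjusted p = 0.26), with r = -0.61 without LFC replicate 6 and HFC replicate 16, -0.42 within LFC and -0.68 within HFC. The remaining 7 pairs had r between -0.48 and 0.38 over 16 libraries and adjusted p-values from 0.145 to 0.637.

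**Figure D4:**
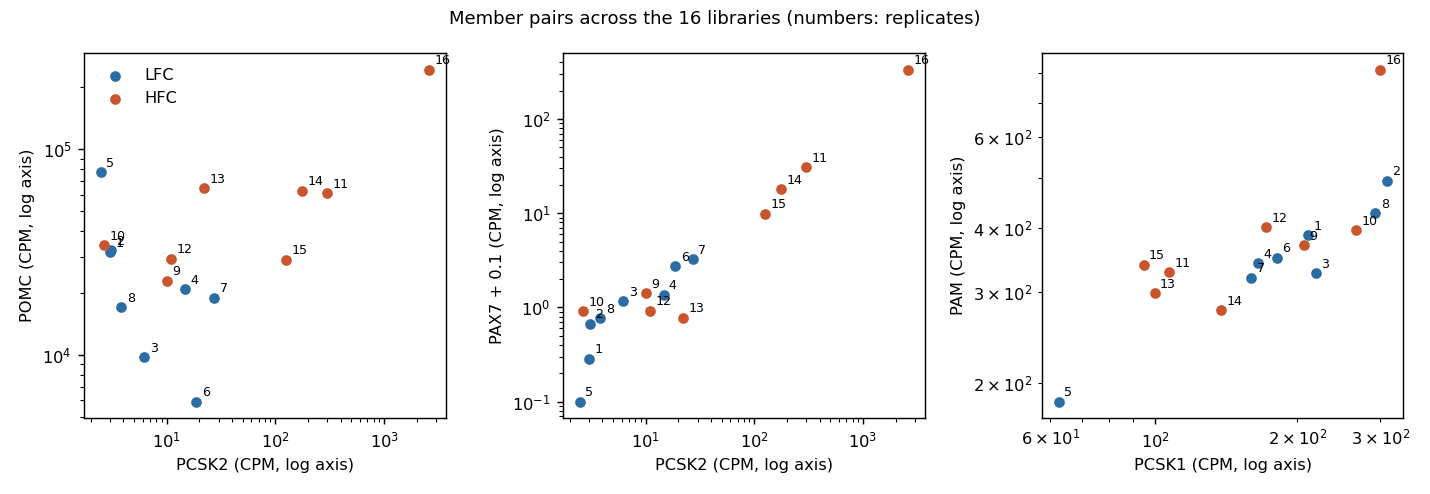
Levels in the 16 libraries (CPM, log axes; 0.1 CPM was added to PAX7 because LFC replicate 5 had 0 counts), with replicate numbers. POMC and PCSK2 (left) had rho = 0.14, PCSK2 and PAX7 (middle) rho = 0.90, and PCSK1 and PAM (right) rho = 0.82.

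The gene lists show which lobe markers accompanied these levels. PAX7, the transcription factor that specifies melanotrophs, tracked PCSK2 with rho = 0.90 over 16 libraries (1 in LFC, 0.83 in HFC). In LFC, PAX7 had 0 counts in replicate 5 (3 counts would be 0.285 CPM) and at most 3.13 CPM. In HFC it reached 30.9, 17.9, 9.81 and 333 CPM in replicates 11, 14, 15 and 16, the same 4 that exceeded the LFC range for PCSK2, and was between 0.676 and 1.31 CPM in the other 4. Its edgeR log2 fold change was 5.31 (SE 1.32, adjusted p = 0.612), and 2.86 without HFC replicate 16.

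The other melanotroph markers did not track PCSK2 over the 16 libraries, with rho 0.06 for DRD2, -0.16 for TBX19 (-0.64 in LFC, -0.19 in HFC) and 0.27 for RBFOX3, a neuronal splicing factor gene. DRD2, the dopamine receptor through which melanotrophs are inhibited, which lactotrophs carry too, was at 490 CPM in HFC replicate 16 and between 38.9 and 179 CPM in the other 15 libraries. TBX19, the T-box factor that activates POMC in both POMC cell types, was at 364 CPM in HFC replicate 16 and between 69.0 and 159 CPM elsewhere. TBX19 had rho 0.59 with POMC over 16 libraries, 0.69 within LFC and 0.05 within HFC, and a log2 fold change of 0.62 (standard error 0.25, edgeR adjusted p = 0.753), or 0.31 without HFC replicate 16. Of the 4 melanotroph markers tested that were no members, 4 were higher in HFC, 2 of them at p under 0.05 (PAX7 and TBX19), and 0 were called; their median log2 fold change was 0.48, against -0.01 over all genes tested. Without HFC replicate 16, 2 were higher and 2 lower, with DRD2 at -0.35 and RBFOX3 at -0.14 on the log2 scale, 1 had p under 0.05 (PAX7), and the median was 0.08.

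The corticotroph markers, which share TBX19 with the melanotroph list, went in different directions. AVPR1B, the vasopressin receptor of corticotrophs, was at 2.41 CPM in HFC replicate 16, the library with most POMC, and between 46.0 and 486 CPM in the other 15 libraries. Its rho with PCSK2 was -0.53 and with POMC 0.10. CRHR1, the receptor for corticotropin-releasing hormone, was at 31.6 CPM in HFC replicate 16 and between 21.0 and 75.6 CPM over all libraries. In LFC, where PCSK2 was low, POMC had rho 0.71 with CRHR1, 0.64 with AVPR1B and 0.69 with TBX19 (n = 8). The list as a whole did not rank with POMC there, since NEUROD1 had rho -0.05 and PCSK1 -0.19. In HFC rho was -0.50 for CRHR1, -0.38 for AVPR1B, 0.05 for TBX19, -0.64 for NEUROD1 and 0.14 for PCSK1. The differences between the groups were not tested. Of the 4 corticotroph markers tested that were no members, 2 were higher and 2 lower in HFC, with a median log2 fold change of -0.06 and 0 called. The shared gene TBX19 was the only 1 of these with an edgeR p under 0.05, and without HFC replicate 16 there were 0.

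**Figure D5:**
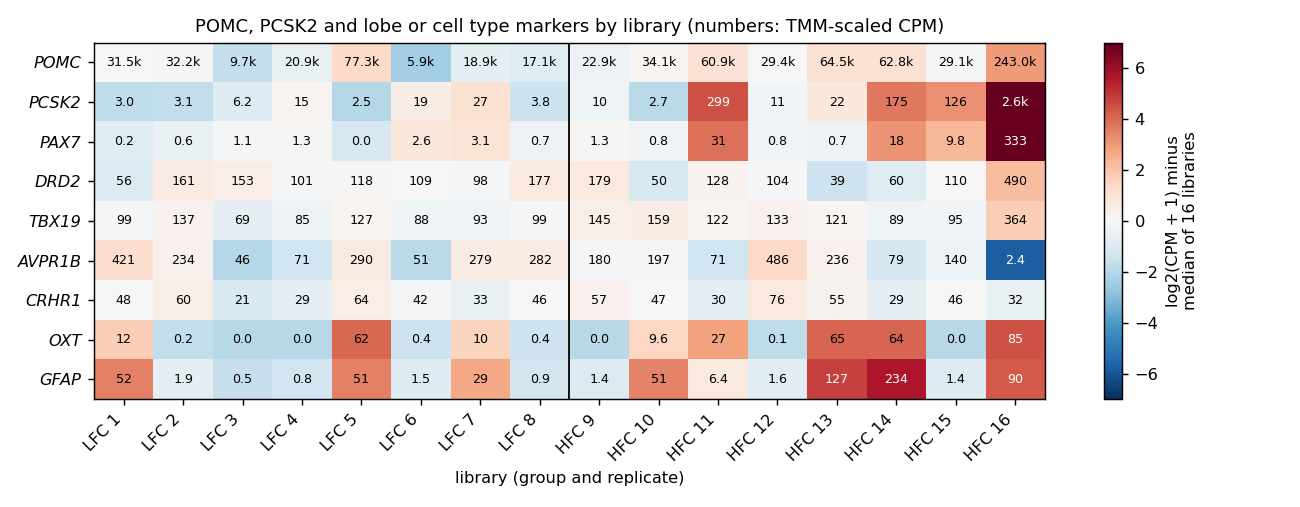
POMC, PCSK2 and markers of melanotrophs (PAX7, DRD2), of both POMC cell types (TBX19), of corticotrophs (AVPR1B, CRHR1) and of the posterior lobe (OXT, GFAP) in each library. Cells give CPM (k, 1000 CPM) and colours log2(CPM + 1) minus the median of the 16 libraries. HFC replicate 16 combined the highest POMC, PCSK2 and PAX7 with AVPR1B at 2.41 CPM.

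Several posterior lobe transcripts ranked like POMC, and others did not. OXT (oxytocin) had rho 0.73 with POMC, RAX (a pituicyte transcription factor) 0.74 and GFAP (a glial filament protein) 0.81, over 16 libraries, whereas with PCSK2 their rho was 0.27, 0.34 and 0.19. Of the other 5 genes on the list, AVP (0.76) and COL25A1 (0.79) also had high rho with POMC, SLC1A3 had 0.43, AQP4 -0.39 and SCN7A -0.74 (-0.83 within LFC). Macrophage genes ranked like POMC too, with rho 0.79 for C1QA, 0.76 for C1QB and 0.72 for AIF1, and 0.48 to 0.61 for CD68, CD163 and CSF1R. Such values were not particular to lobe or macrophage genes. Of the 4 reference genes tested, RPS29 had rho 0.78 with POMC, ACTB 0.72, GAPDH 0.29 and OAZ1 0.23. OXT was at 62.0 CPM in LFC replicate 5 and at 65.2, 64.5 and 84.8 CPM in HFC replicates 13, 14 and 16, all among the libraries with most POMC. In HFC replicate 15, with PCSK2 at 126 CPM, OXT had 0 counts and GFAP was at 1.45 CPM. The summed level of the 8 posterior lobe genes with a row ranged from 28.7 to 154 CPM in LFC. In HFC it ranged from 27.1 to 389 CPM. Of the 8 tested, 6 were higher in HFC, with 0 called and a median log2 fold change of 1.74. Dropping 1 library moved this median both ways, to 2.81 (LFC replicate 5), 1.49 (HFC replicate 16) or 1.28 (HFC replicate 14). Only 5 of these genes were tested once LFC replicate 5 and HFC replicate 16 were both dropped (3 higher, 2 lower, median 0.26). The same counts held when LFC replicate 5 was dropped together with HFC replicates 13 and 14 (median 0.12). Both medians leave out genes that the median of 1.74 includes, so they are not comparable with it. The part of lobe composition in the member levels was not tested.

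Of the 5 anterior lobe hormone genes, 4 had negative rho with PCSK2 over 16 libraries, at -0.46 for PRL, -0.58 for CGA, -0.51 for TSHB and -0.59 for FSHB, while GH1 (growth hormone) had 0.08 (0.52 in LFC, -0.21 in HFC). HFC replicate 16 had PRL (prolactin) at 276 CPM, CGA (the subunit shared by glycoprotein hormones) at 1689 CPM and TSHB (the thyrotropin subunit) at 1 count (0.0602 CPM), each the lowest of all 16 libraries. The summed level of the 5 hormones was between 52376 and 165954 CPM in LFC and between 13949 and 169292 CPM in HFC. All 5 had a lower fitted level in HFC, 1 of them (PRL) at p under 0.05 and 0 called, with a median log2 fold change of -0.39. Without HFC replicate 16, 4 of the 5 were lower and the median was -0.21. PRL itself had a log2 fold change of -1.86 (standard error 0.71, edgeR adjusted p = 0.719).

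Markers of other cells in the gland were also counted, and 0 of any list were called. Of 6 macrophage genes 4 had a higher fitted level in HFC (median log2 fold change 0.26), of 6 endothelial genes 0 (-0.17), of 6 fibroblast genes 5 (0.16), of 3 erythrocyte genes 0 (-0.35), and of 4 stem and folliculostellate genes 1 (-0.12). That 1 was SOX9, a factor of the stem cell pool and of glia, at 4.79 to 9.14 CPM in LFC and 3.46 to 33.4 CPM in HFC (log2 fold change 0.97, standard error 0.34, edgeR adjusted p = 0.654), and at 0.64 without HFC replicate 16. Without LFC replicate 5, 6 macrophage genes (median 0.51), 2 endothelial genes (-0.12), 4 fibroblast genes (0.23) and 2 erythrocyte genes (0.06) had the higher level in HFC.

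None of the enzymes' partners passed the test. Of 14 further processing genes, all tested, 4 were higher and 10 lower in HFC, 0 of them at p under 0.05, with a median log2 fold change of -0.12. SCG5, which encodes the chaperone 7B2 of prohormone convertase 2, was at a median of 1030 CPM in LFC and 882 CPM in HFC (log2 fold change -0.18, standard error 0.14, edgeR adjusted p = 1) and had rho -0.16 with PCSK2. It was at 1080 CPM in HFC replicate 16, where PCSK2 was at 2595 CPM. PCSK1N, which encodes the convertase 1 inhibitor proSAAS, had rho -0.63 with PCSK1 and -0.62 with PAM, and a log2 fold change of -0.30 (standard error 0.33, edgeR adjusted p = 1), or 0.07 without LFC replicate 5. Such rho values were not particular to the inhibitor. Among the reference genes, OAZ1 had rho -0.81 with PCSK1 and -0.80 with PAM, and RPS29 -0.59 and -0.47. GAPDH (-0.09 and -0.26) and ACTB (-0.19 and -0.26) were weaker. FURIN, the convertase of the general secretory route, was between 85.2 and 194 CPM in LFC and between 89.8 and 176 CPM in HFC. QPCT, which forms pyroglutamate at the start of peptides, was between 99.7 and 173 CPM in LFC and between 41.7 and 195 CPM in HFC. Carboxypeptidase Z (CPZ) had the largest change of the 14 in absolute size, a log2 fold change of -0.64 (standard error 0.34, edgeR adjusted p = 0.909), or -0.35 without LFC replicate 5.

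Among 12 regulators of POMC, 5 were higher and 7 lower in HFC, with a median log2 fold change of -0.10 and 0 called. PAX7 and TBX19 were higher at p under 0.05, and NR4A2, an orphan nuclear receptor that drives POMC transcription, was lower (-0.61, standard error 0.25, edgeR adjusted p = 0.753). Its relative NR4A1 was at -0.88 (standard error 0.53, edgeR adjusted p = 0.957), a value that rested on LFC replicate 7 (511 CPM) and was -0.04 without it. The glucocorticoid receptor gene NR3C1, which mediates feedback on POMC, had a log2 fold change of -0.18 (standard error 0.16, edgeR adjusted p = 1). Of 9 genes for melanocortin and opioid receptors and their accessory or antagonist proteins, 4 passed the filter, 2 higher and 2 lower in HFC. MC2R, the ACTH receptor of the adrenal, had 0 counts in 13 of the 16 libraries, and MRAP2, an accessory protein of melanocortin receptors, was between 39.5 and 79.0 CPM.

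The genes whose levels ranked most like each member over the 16 libraries were also taken, among the 12954 tested genes with a symbol. For PCSK2 they were GATM (rho 0.92), PAX7 (0.90), PRDM8 (0.88), SYT11 (0.86) and SMIM17 (0.85). PRDM8, a transcriptional regulator, ranged from 0 to 22.1 CPM with a log2 fold change of 2.60 (edgeR adjusted p = 0.612), or 1.52 without HFC replicate 16, and SYT11, a synaptotagmin, from 46.3 to 266 CPM with rho 0.98 within HFC and 0.67 within LFC. None of these was a corticotroph marker.

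For POMC the 10 highest were CDK5RAP1 (rho 0.94), ANXA1, TMSB4X, LBH and CTDSP1 (0.91 each), CLCN2 (0.90), and TNFSF13, DBI, PET100 and ZNF385A (0.89 each). ANXA1, which encodes annexin A1, a mediator of glucocorticoid action, had rho 0.93 within LFC and 0.95 within HFC at levels of 27.4 to 77.4 CPM. TMSB4X, thymosin beta 4, ranged from 328 to 4557 CPM. Neither PCSK1 nor PCSK2 was among them. For PCSK1 the 5 highest were AGPAT1 (0.94), PCDHA13 (0.93), TTC17, KCND2 and SLC39A9 (0.91 each), and for PAM they were CD2AP (0.93), ZNF275 (0.92), KCND2, TRIM25 and FBXL18 (0.91 each). KCND2, a potassium channel subunit, was thus on both lists. PCDHA13 belongs to a clustered gene family whose members share exons, so its count is uncertain. For CPE they were UIMC1 (0.94), DNAJB14 and SAR1A (0.89 each), and CNOT9 and TPD52 (0.88 each). SAR1A encodes a GTPase of vesicle export from the endoplasmic reticulum. These rho values are a description of 16 libraries that also differ in the balance of long and short genes.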

How the data were processed

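The authors deposited raw counts of reads by gene for 16 pituitary libraries, all of them whole numbers (single reads, poly(A) kit without strand). The submitters' processing notes name FastQC, STAR, RSEM and DESeq2 and the assembly Sscrofa11.1; RSEM normally gives estimated counts that are not whole, so the counting step is unclear. The labels' extraction text speaks of fat, the methods of whole pituitaries. A second deposited table held the authors' group means, fold, p-value and adjusted p-value; only its gene symbols and positions were used.

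Symbols came from that table (10091 genes), a name table (5454) and position (POMC). RefSeq positions are those of Sscrofa11.1. Counts of overlapping or antisense genes are uncertain without strand. OACYL, PITX1, MC4R, OPRD1, ASIP, LHB, NKX2-1, S100B, SOX2, HBA1, HBA2 and PPIA are not analysed here.

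HFC was tested against LFC in edgeR 4.0.16 under R 4.3.3 (glmQLFit, glmQLFTest, TMM, filterByExpr, Benjamini-Hochberg adjustment over 14319 genes), without covariates. The filter removed 11561 genes. Log2 CPM used a prior count of 2. Single values were compared by exact permutation over 12870 assignments, and correlations by 100000 resamples, in scipy 1.17.1. The scripts were tested on simulated data. No 2 libraries of a group were alike within counting noise (chi-square over its degrees of freedom was at least 28.3 in 56 pairs). Alternatives were DESeq2 1.42.0, limma-voom 3.58.1, other scalings, filters and priors, and libraries left out; for the gene lists the last was added after the data were seen. Levels were not divided by gene length, so levels and ratios are compared between libraries, not between genes. Genes named were the 5 members, the listed genes and those of highest rho (10 for POMC, 5 for each enzyme). Members and gene lists were chosen with earlier results of these data known.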

Additional observations from a re-analysis of the deposited data

Results flagged for a closer look

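In groups of 8 libraries, a library was singled out where its gap to the nearest other library exceeded 0.526 of the group's whole range. Of 20 such checks on the 5 genes and 5 ratios in both groups, 5 met this. Independent checks on normally distributed values would give 1.0, at about 1 in 20. The ratios are built from the same genes, so the checks are not independent and the count does not measure an excess over chance. POMC in HFC replicate 16 was at 17.89 log2 CPM, with the other 7 libraries between 14.48 and 15.98. PAM in the same library was at 9.66 log2 CPM, with the others between 8.11 and 8.65. In LFC replicate 5, PCSK1 was at 5.97 log2 CPM (others 7.32 to 8.28) and PAM at 7.52 log2 CPM (others 8.32 to 8.95), and the log2 ratio of PCSK1 to POMC was -10.27 (others -7.23 to -5.04). These 2 libraries thus account for all 5. PCSK2 in HFC replicate 16 was the highest value of all for that gene without meeting the criterion, since 3 other HFC libraries were high too.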

How the results depend on the processing

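Across other tools, scalings, filters, priors and libraries left out, 352 of 405 recalculated values kept their direction and their side of the threshold. Many of these were edgeR fold changes far from the adjusted threshold, so that POMC at 0.70 counted as unchanged. Nearer the threshold, the POMC difference in means kept an exact permutation p under 0.05 in 14 alternatives and lost it in 8. For the ratio of PCSK1 to POMC it was kept in 5 and lost in 13. DESeq2 called 6 genes, or 64 when outlying counts were not replaced (1024 at an unadjusted p under 0.05), a setting chosen after seeing the data that gave PCSK2 a log2 fold change of 5.34 and a call. That call turned on HFC replicate 16, the only library whose PCSK2 count had been replaced. With 1 library left out at a time, 0 genes were called throughout, and the log2 fold changes ran from 0.70 to 1.81 for POMC, -0.37 to -0.09 for PCSK1, 3.21 to 5.75 for PCSK2, -0.26 to -0.08 for CPE and -0.04 to 0.27 for PAM. The differences in mean log2 CPM ran from 0.97 to 1.57 for POMC (8 of 16 lost p under 0.05), 2.28 to 3.69 for PCSK2 and -0.00 to 0.23 for PAM. The ratio differences ran from 2.64 to 4.03 (PCSK2 to PCSK1), -2.0 to -1.25 (PCSK1 to POMC), -1.87 to -1.11 (CPE to POMC) and -1.54 to -0.88 (PAM to POMC). PAM turned to -0.13 without LFC replicate 5 and HFC replicate 16.

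Without LFC replicate 5, HFC replicate 13 and HFC replicate 14, chosen after seeing the data, the PCSK2 difference in means was 2.83 and that of its ratio to PCSK1 3.13, both losing p under 0.05, while the ratios to POMC gained it for CPE (-1.67) and PAM (-1.29). A difference of medians gave -1.75 for PCSK1 to POMC (exact permutation p = 0.0511). Correlations turned sign for POMC with PCSK1 (0.12) and CPE with PAM (-0.25) without those 3 libraries, for POMC with PAM (-0.41) and PCSK2 with PAM (-0.21) without HFC replicate 16, and by rank for the last 2 pairs (-0.10 and -0.16). The causes were not tested. No paired analysis was possible because the groups share no replicate numbers.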
